A study of Homo sapiens with 3 samples.

Results

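MHCC97Low is a human hepatocellular carcinoma line, described by its labels as a metastatic hepatoma line and as the parent of 2 sublines, one resistant to cisplatin and one to doxorubicin. Each of these 3 lines was measured on 1 array. The values described here are those of the parental array alone, 1 of the 3 samples, from cells kept in DMEM with 10% FBS that had received no drug. Its total RNA was labelled with biotin and hybridised to an Affymetrix U133 Plus 2.0 array, which reads most genes through several probe sets, each a group of short probes towards the 3′ end of a transcript. A gene was taken as its brightest probe set among those annotated with a single symbol, and 19775 genes were ranked by that signal, from 1 for the brightest. All 19775 ranked genes are therefore described, from 41091 of the 54675 probe sets. A cell line grown alone on plastic holds none of the blood vessel, stellate or immune cells of a liver, and no normal hepatocytes were measured, so the array describes the tumour line and not a liver.

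Hepatocytes secrete most plasma proteins, assemble lipoproteins, make bile acids, run the urea cycle and oxidise drugs. A fetal liver makes alpha-fetoprotein in large amounts, and many liver cancers make it again. Epithelial cells are held together by E-cadherin, claudins and desmosomes over a keratin skeleton, whereas mesenchymal cells use N-cadherin, vimentin and fibronectin, and carcinoma cells can carry both sets of transcripts.

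The signal ran from 0.108 to 47009 arbitrary units, with a median of 78.5 over all probe sets. That median served as the floor: 12075 genes (61.1%) were above it and 7700 were at or under it. Of protein-coding genes, 68.1% were above it, against 23.0% of genes for long noncoding RNAs. Most lists below are set beside the share of all genes only. Genes of the brightest 10% had a signal of at least 3314 (1977 genes), and those of the brightest 1% had at least 17592 (197 genes). The floor does not separate expressed from silent genes, because 7 of 34 genes restricted to other organs, such as pancreas, brain, muscle, testis and eye, also lay above it. The highest of these 7 was SLC17A7, a neuronal glutamate transporter, at 226. Of all genes, 9591 (48.5%) exceeded that level, and the 2484 genes (12.6%) between the floor and 226 are called faint below. Probe sets differ in how strongly they bind their target, so ranks describe positions on this array, and no fold between genes is given. A single array has no replicate error and allows no test, so the precision of all signals and ranks is limited by the number of arrays.

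The number of probe sets moved with these counts. Of genes read by 1 probe set, 44.7% were above the floor, against 86.1% of genes read by 4 or more, and its part in the list counts below was not tested. Among the 7941 genes above the floor that had several probe sets, the second brightest was also above it for 5929 (74.7%). The brightest was a median of 2.05-fold above the second where both passed. Taking the lowest probe set of each gene in place of the brightest left 7843 genes above the floor, and the list counts fell with it, to 10 plasma protein, 8 transcription factor, 15 epithelial, 8 mesenchymal and 9 receptor genes. The signal ratio of 3′ to 5′ control probe sets, which departs from 1 where RNA is degraded, was 1.49 for ACTB and 0.954 for GAPDH.

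**Figure D1:**
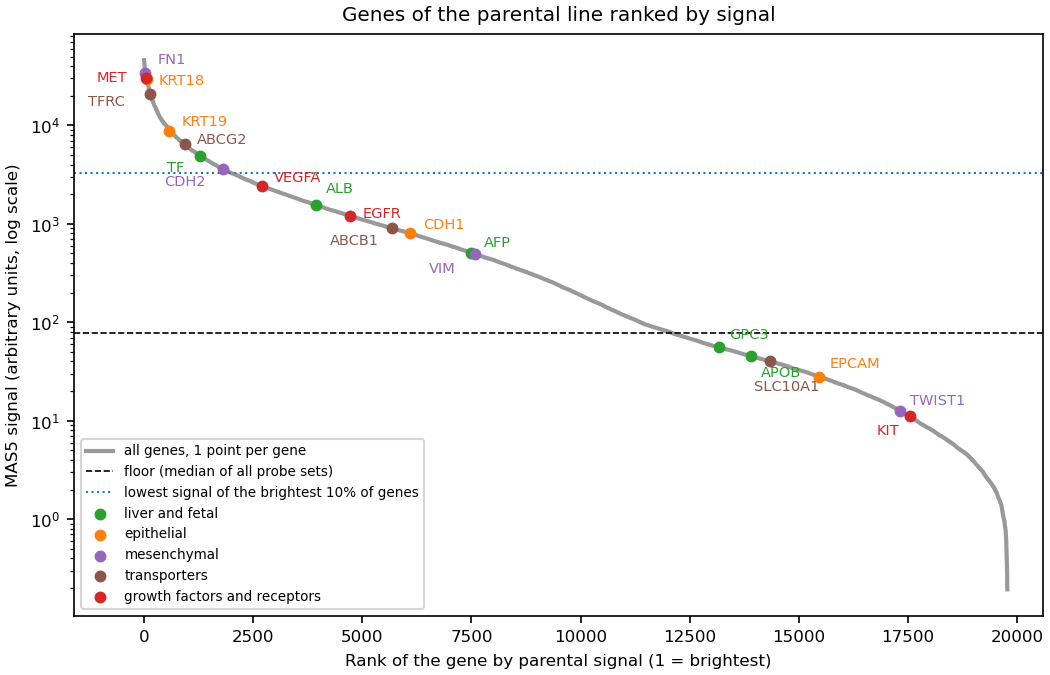
Parental MAS5 signal of all 19775 genes (vertical axis, log scale, arbitrary units) against rank (horizontal axis, 1 for the brightest), with single genes marked by group and the floor and the lower limit of the brightest 10% as lines. FN1, MET, KRT18 and TFRC lie among the brightest 1%, ALB and AFP between both lines, and GPC3, EPCAM, TWIST1 and KIT under the floor.

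The brightest genes were those of protein synthesis, the cytoskeleton and the mitochondrial genome, with AKR1B10 ahead of them. AKR1B10, an aldo-keto reductase that is often raised in liver cancer, held rank 1 at 45853, read by 1 probe set. Genes for cytosolic ribosomal proteins made up 46 of the brightest 197 genes (23.4%) and 11 of the brightest 25. Many genes of this group, and FTL and CD24 below, have near-identical pseudogenes that a probe set may also read, so their values are uncertain. The mitochondrial genome, represented by 7 genes, gave 3 of the brightest 25, among them the cytochrome oxidase subunit genes COX2 at 45214 and COX1 at 43048. Beside ACTB (41850), the ferritin light chain gene FTL (40881) and the tubulin gene TUBA1B (38570), the brightest 25 genes also held S100A4 (rank 11) and CAV1 (rank 25). CAV1 encodes caveolin, the coat protein of caveolae.

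All 15 housekeeping reference genes and all 25 proliferation genes measured were above the floor, beside 61.1% of all genes. Of the proliferation genes, 14 were in the brightest 10%, a band that holds 10% of all genes by construction. TYMS, the enzyme that makes thymidylate, was at 13217. The mitotic ubiquitin-conjugating enzyme UBE2C was at 10569 and the replication clamp PCNA at 9399. The lowest proliferation gene was at 685, above the highest gene restricted to other organs.

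Plasma protein genes spread over the whole range of signal. Of 27 measured, 17 (63.0%) were above the floor, and 4 (14.8%) were in the brightest 10%. Above the floor were 61.1% of all genes and 68.1% of protein-coding genes. Of the 17, 4 others were faint. The brightest 10% held ITIH2, a heavy chain of inter-alpha-trypsin inhibitor, at 8188 (rank 661), and the copper carrier ceruloplasmin CP at 6367 (rank 947). The iron carrier transferrin TF at 4925 (rank 1282) and APOH at 4297 (rank 1498) were also in that band. CP passed the floor in all 4 of its probe sets, the lowest at 908. APOH was at 371 in its other probe set. Albumin, the most abundant plasma protein, was lower in the order than the 4 of the brightest 10%: ALB was at 1545, rank 3938. Its 4 probe sets disagreed, with the second at 389 and the lowest at 5.48.

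The 3 fibrinogen chains had separate positions. FGB was at 1977 (rank 3259) and its other probe set at 1295, FGG was at 1004 (rank 5309), and FGA was at 560 (rank 7209). The protease inhibitor gene SERPINA1 was at 853 and AMBP, the precursor of alpha-1-microglobulin, at 1217. The thyroid hormone carrier TTR was at 246, just above the faint range. Others were under the floor: haptoglobin HP at 36.8, plasminogen PLG at 27.4, the complement gene C3 at 24.7, kininogen KNG1 at 65.8 and antithrombin SERPINC1 at 31.1. HP and C3 were each read by 1 probe set, whereas PLG was under the floor in all 3 of its own.

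Of 12 genes of lipoprotein assembly, 5 (41.7%) were above the floor, beside 61.1% of all genes. The HDL receptor gene SCARB1 (8383, rank 637) and APOC1 (4098) were in the brightest 10%. MTTP, which loads lipid onto apolipoprotein B, was at 956. APOE was at 273 with all 3 of its probe sets between 206 and 273, and APOM was faint at 132. The main structural apolipoproteins were under the floor: APOA1 at 73.0, APOB at 45.4, APOA2 at 28.7 and APOC3 at 7.54. APOB was at 42.3 in its other probe set.

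Metabolic enzymes of the hepatocyte were above the floor in 15 of 26 cases (57.7%), and genes of the urea cycle lay on both sides of it. The share was 61.1% for all genes and 68.1% for protein-coding genes. ALDH1A1, which makes retinoic acid, was at 19560 (rank 157) and glutamine synthetase GLUL at 7784. GLUL was at 1141 in its second probe set and 47.0 in its lowest. The tyrosine breakdown enzymes HGD and FAH were at 3310 and 2058, and TDO2, which opens the tryptophan ring, was at 1131. In the urea cycle, ASL was at 1552 and ASS1 at 1006, whereas ARG1 (37.8), CPS1 (24.3) and OTC (3.40) were under the floor. The gluconeogenic genes G6PC1 (32.0) and PCK1 (1.48) were under it as well. ARG1 was under the floor in all 4 probe sets.

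Of 20 genes of drug and sterol metabolism, 12 (60%) were above the floor, beside 61.1% of all genes and 68.1% of protein-coding genes. The epoxide hydrolase EPHX1 was at 12588 (rank 342), and CYP24A1, which inactivates vitamin D, was at 5135. The dioxin receptor AHR was at 2922 and the P450 electron donor POR at 1998. Of the CYP3A enzymes, which oxidise many drugs, CYP3A5 was at 957 with a second probe set at 874, and CYP3A4 was at 248 in the brightest of 5. CYP2E1 (32.1, and 4 probe sets all under the floor), CYP1A1 (32.4), CYP2C8 (32.1), the bile acid enzyme CYP7A1 (13.8) and the bilirubin conjugating enzyme UGT1A1 (6.70) were under the floor.

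Of 19 liver transcription factors measured, 17 (89.5%, beside 61.1% of all genes) were above the floor. The list median was 596 against 199 for all genes. Of the 17, 4 were faint (FOXA3, CREB3L3, NR5A2 and PROX1), so 13 exceeded 226. CEBPB, a factor of the acute phase response, was at 13413 (rank 312) and CEBPA, a factor of hepatocyte differentiation, at 4200. HHEX, needed for liver bud formation, was at 2969 and at 1830 in its other probe set. The pioneer factor FOXA2 was at 1417, FOXA1 at 457 and FOXA3 at 196, the last within the faint range. FOXA2 was at 590 and 13.9 in its other probe sets. GATA6 was at 1062, but under the floor at 72.7 in its other probe set. The repressor NR0B2 (32.5) and ONECUT1 (9.25) were the 2 under the floor.

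The start regions of the albumin and alpha-fetoprotein genes are shown beside those of MET and GAPDH because they differ in base composition, which the ranking did not use. Each is the stretch of 150 bases before the annotated start, on the plus strand of GRCh38.p14, from RefSeq. Capitals mark GTTAAT, the core of the binding motif of the hepatocyte factors of the HNF1 family, and TATAAA, the TATA box, both searched on either strand.
ALB: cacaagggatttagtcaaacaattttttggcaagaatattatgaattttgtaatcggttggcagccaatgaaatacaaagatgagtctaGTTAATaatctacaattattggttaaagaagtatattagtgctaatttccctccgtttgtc
AFP: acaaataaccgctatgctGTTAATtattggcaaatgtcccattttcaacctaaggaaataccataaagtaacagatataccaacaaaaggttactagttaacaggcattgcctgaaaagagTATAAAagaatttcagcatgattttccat
MET: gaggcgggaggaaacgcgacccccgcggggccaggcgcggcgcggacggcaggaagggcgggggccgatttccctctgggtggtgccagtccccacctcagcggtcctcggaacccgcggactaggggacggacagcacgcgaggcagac
GAPDH: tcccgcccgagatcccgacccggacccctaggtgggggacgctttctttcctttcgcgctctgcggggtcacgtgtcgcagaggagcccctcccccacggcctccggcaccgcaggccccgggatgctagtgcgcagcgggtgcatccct
The positions are chr4:73404137-73404286 for ALB, chr4:73436071-73436220 for AFP, chr7:116672046-116672195 for MET and chr12:6535114-6535263 for GAPDH. ALB held GTTAAT with its first base 61 bases before the start. AFP held TATAAA 29 bases and GTTAAT 132 bases before it. MET and GAPDH held neither motif in this window, which says only that these letters are not there. The same window of the plasma protein genes TF and AMBP held neither as well, whereas APOH and FGB held GTTAAT. Of 13454 protein-coding genes with a promoter entry, 6.33% held GTTAAT and 10.8% held TATAAA in the 250 bases before the start. A match is a description of the sequence and no proof of binding.

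Brightness on the array went with CpG content before the start. The ratio of observed to expected CpG in those 250 bases was 0.545 for ALB and 0.160 for AFP, against 0.836 for MET and 0.718 for GAPDH. Single genes also departed from this order. The ratio was 0.0663 for KRT8 (signal 23132) and 0.284 for S100A4 (39560), but 1.01 for the dimmer CEBPA (4200). Its median was 0.858 in the brightest 1% of genes, 0.845 in the rest of the brightest 10%, 0.808 in the other genes above 226, 0.657 in the faint genes and 0.470 in the genes at or under the floor. The share of genes with a ratio under 0.4 was 4.07% in the brightest 10% below the top 1%, and 44.5% at or under the floor. The share was 6.79% in the brightest 1%, so the top band was not lower than the next. Entries were found for 90% of protein-coding genes in the top band and 80.2% in the lowest.

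**Figure D2:**
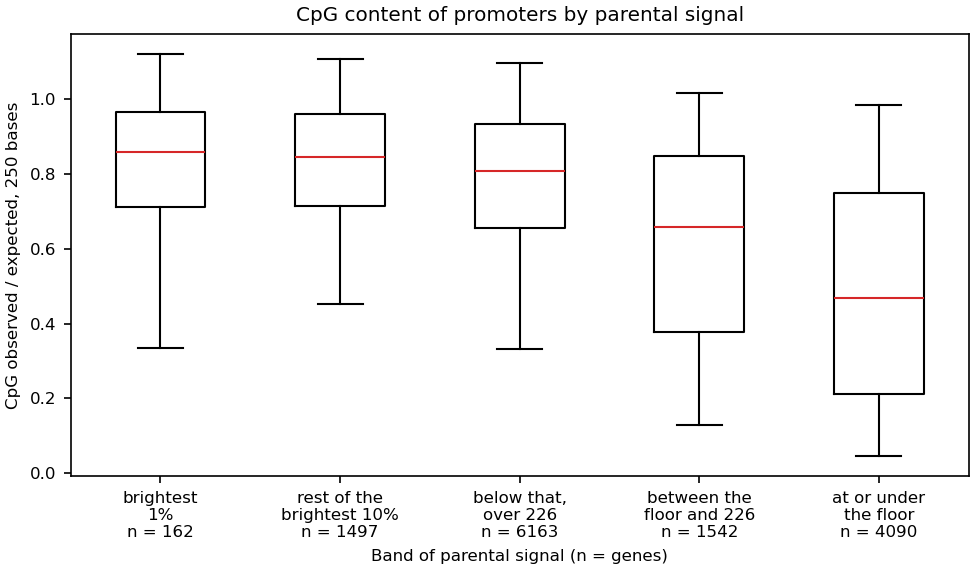
Ratio of observed to expected CpG in the 250 bases before the start (vertical axis, no unit) for protein-coding genes in 5 bands of parental signal (horizontal axis), with boxes from the 25th to the 75th percentile and the median in red. The band medians fall from 0.858 in the brightest 1% to 0.470 at or under the floor, and the boxes of neighbouring bands overlap.

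Fetal and oncofetal genes ran from the brightest gene of the array to values far under the floor. Of 19 measured, 10 (52.6%, beside 61.1% of all genes) were above the floor, all of them above 226, and 4 were in the brightest 10%: AKR1B10, SOX4 at 12187 (rank 361), the growth factor midkine MDK at 7998 and the RNA-binding protein gene IGF2BP3 at 3487. SOX4, a transcription factor of progenitor cells, had a second probe set at 10883. AFP itself, the serum marker of liver cancer, was at 508 (rank 7497), read by 1 probe set. The chromatin protein HMGA2 was at 1577, but its second probe set was at 351 and its lowest at 10.5. IGF2BP2 was at 1869 and IGF2BP1 at 659, the latter in 3 probe sets that all passed the floor. The other widely used liver cancer marker, the cell-surface proteoglycan GPC3, was under the floor at 55.6 (rank 13166) and 48.2 in its 2 probe sets. The let-7 antagonists LIN28A (9.12) and LIN28B (3.81), the imprinted ligand DLK1 (76.2) and the stem cell factor SALL4 (71.3) were under it too.

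Of 19 progenitor, stem cell and bile duct markers, 10 (52.6%, beside 61.1% of all genes) were above the floor, 2 of them faint. The brightest 10% held 4 of the 19. The secreted phosphoprotein SPP1 (osteopontin) was at 29233 (rank 61) and the surface glycoprotein CD24 at 14682 (rank 272), where 6 probe sets read it and the lowest was at 1336. KRT19, the bile duct keratin, was at 8851 (rank 582) in 1 probe set and at 128 in the other. The other bile duct keratin, KRT7, was at 818, and the duct factor SOX9 was at 1840 and 543. CD44, the hyaluronan receptor, was at 5870 in the brightest of 13 probe sets. The adhesion molecule ICAM1 was at 1601 with all 3 probe sets above the floor, and the aminopeptidase ANPEP (CD13) was at 363 in 1 of 3. Among the surface markers under the floor were EPCAM (28.0, rank 15469), PROM1 (24.3), THY1 (68.8) and KIT (11.04). EPCAM, PROM1 and KIT were each read by 1 probe set.

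Epithelial genes were above the floor in 25 of 33 cases (75.8%, beside 61.1% of all genes), and 7 were in the brightest 10%. The simple epithelial keratins led: KRT18 was at 29626 (rank 57) and KRT8 at 23132 (rank 113), each with 1 probe set. The desmosome genes DSP (11103) and DSG2 (4164), the tight junction scaffold TJP1 (3866) and the epithelial factor ELF3 (3457) followed. E-cadherin, CDH1, was lower in the order at 798 (rank 6103), and its other probe set was at 12.4. The tight junction claudins CLDN4 (709, and 7.06 in its other probe set) and CLDN1 (367 and 54.8) were above the faint range in 1 of 2 probe sets each, but CLDN3 was under the floor at 41.0. GRHL2 (46.7) and ESRP1 (20.6), regulators of the epithelial state, were also under it, the latter in both probe sets.

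Of 26 mesenchymal genes, 19 (73.1%, beside 61.1% of all genes) were above the floor and 7 were in the brightest 10%. At the level of 226, which 48.5% of all genes exceeded, the count was 14 of 26, beside 23 of 33 epithelial genes. The difference between these lists was not tested. The calcium-binding protein S100A4 was at 39560 (rank 11) and fibronectin FN1 at 34306 (rank 26), the latter with a second probe set at 34282 and the lowest of 7 at 320. Integrin ITGB1 was at 14538, tropomyosin TPM1 at 7281 and 6965, caldesmon CALD1 at 5569, and TGFBI at 4849. N-cadherin, CDH2, was at 3577 (rank 1801) and 751, so both of its probe sets were above the floor, whereas E-cadherin passed in 1 of 2. The defining filament protein vimentin was not among the bright ones: VIM was at 493 (rank 7577) in 1 probe set and at 8.79 in the other. Of the transcription factors that drive the mesenchymal state, ZEB1 (1332) and SNAI2 (393) were above the floor, ZEB2 (86.3) and SNAI1 (82.6) were faint, and TWIST1 (12.6), TWIST2 (48.6) and PRRX1 (44.2) were under it.

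**Figure D3:**
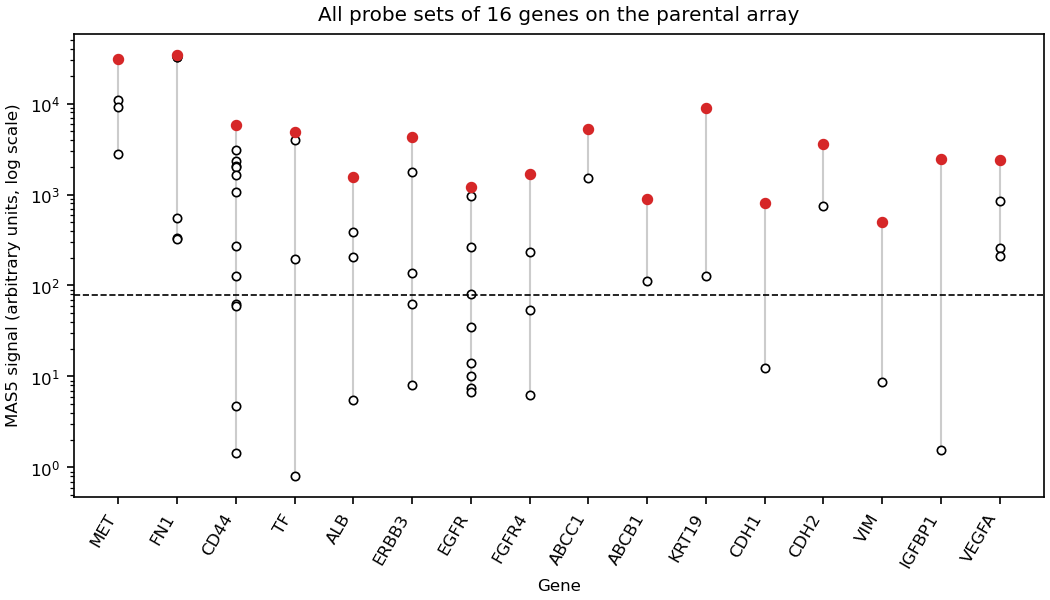
Signal of every probe set (vertical axis, log scale, arbitrary units) of 16 genes (horizontal axis), with the probe set that represents the gene filled in red, the others open, and the floor as a dashed line. Probe sets of ALB, CDH1, VIM and IGFBP1 lie on both sides of the floor, whereas those of MET, CDH2 and VEGFA are all above it.

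Markers of other cell types were low as lists, although some members were above the floor. Of all genes, 61.1% lay above the floor. Of the fibroblast and stellate cell list, 4 of 15 (26.7%) were above it. They were COL6A3 at 1499, FBLN1 at 1198, COL1A1 at 309 and LUM at 258, and the fibrillar collagen COL3A1 was at 15.6. COL1A1 was at 45.8 in its second probe set and LUM at 34.1 in its other, so each passed in 1 only. FBLN1 was at 1085 in its second and 50.3 in its lowest. The summed signal of the list was 3781, from members between 15.6 and 1499. Of the leukocyte list, 4 of 18 (22.2%) were above the floor, the highest being CD79A at 377. The pan-leukocyte marker PTPRC was at 17.1 in the brightest of 5 probe sets. Of the endothelial list, 5 of 14 (35.7%) were above. PECAM1 was at 1052 with 4 of its 5 probe sets above the floor, whereas VWF (15.1) and CDH5 (44.9) were under the floor. Why these members lay above the floor was not tested.

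Genes of the ABC family, which holds drug efflux pumps, lipid transporters and members that transport nothing, were above the floor in 21 of 27 cases (77.8%). The share of all genes was 61.1%. Of the 27, 4 were in the brightest 10%. That count fell to 2 when only protein-coding genes were ranked. ABCG2, the breast cancer resistance protein, was at 6438 (rank 935), ABCC1 (MRP1) at 5181 (rank 1209) and 1531, and the canalicular pump ABCC2 (MRP2) at 3364 (rank 1943). ABCC3, on the sinusoidal side, was at 3233 with all 5 probe sets above the floor. ABCE1, which is a ribosome recycling factor and no pump, was at 3875. ABCB1 (P-glycoprotein), the pump of doxorubicin, was at 897 (rank 5683) and 113, so 1 of its 2 probe sets was faint. The phospholipid flippase ABCB4 was at 270 and 76.5, the latter under the floor. The bile salt export pump ABCB11 (32.8) and the sterol pump subunit ABCG5 (1.46) were under the floor.

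Carriers of bile acids and drugs, for uptake or export, included no member of the brightest 10%. Above the floor were 9 of 17 (52.9%), beside 61.1% of all genes. SLC51B, a subunit of the basolateral bile acid exporter, was the highest at 2151 (rank 3017), but the other subunit, SLC51A, was under the floor at 5.05 (rank 18707). The organic anion carrier gene SLCO4A1 was at 1158 and 8.24, and the extrusion carrier SLC47A1 at 533. Of the hepatocyte uptake carriers, SLC10A1 (NTCP), the bile salt carrier, was under the floor at 40.1. So were SLCO1B1 at 34.5 and SLCO1B3 at 45.7, and each of these genes was read by 1 probe set. SLCO2B1 of the same list was above the floor at 650, but at 27.3 and 13.3 in its other probe sets.

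General nutrient and metal transporters held higher positions, with 22 of 25 (88%) above the floor, beside 61.1% of all genes. Of the 25, 12 (48%) were in the brightest 10%. The mitochondrial ADP/ATP carrier SLC25A5 was at 25908 (rank 90) and the transferrin receptor TFRC at 20855 (rank 142). The glutamine carriers SLC38A2 (18686) and SLC38A1 (10362) and the cystine importer SLC7A11 (12435) were also in that band. The iron exporter SLC40A1 was at 6992 and at 552 in its other probe set. SLC31A1, the copper importer that also carries cisplatin, was at 1659, and the glucose carrier SLC2A1 was at 1175. The liver glucose carrier SLC2A2 (3.04) and the hepatic second transferrin receptor TFR2 (58.0) were under the floor, TFR2 in all 3 probe sets.

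**Figure D4:**
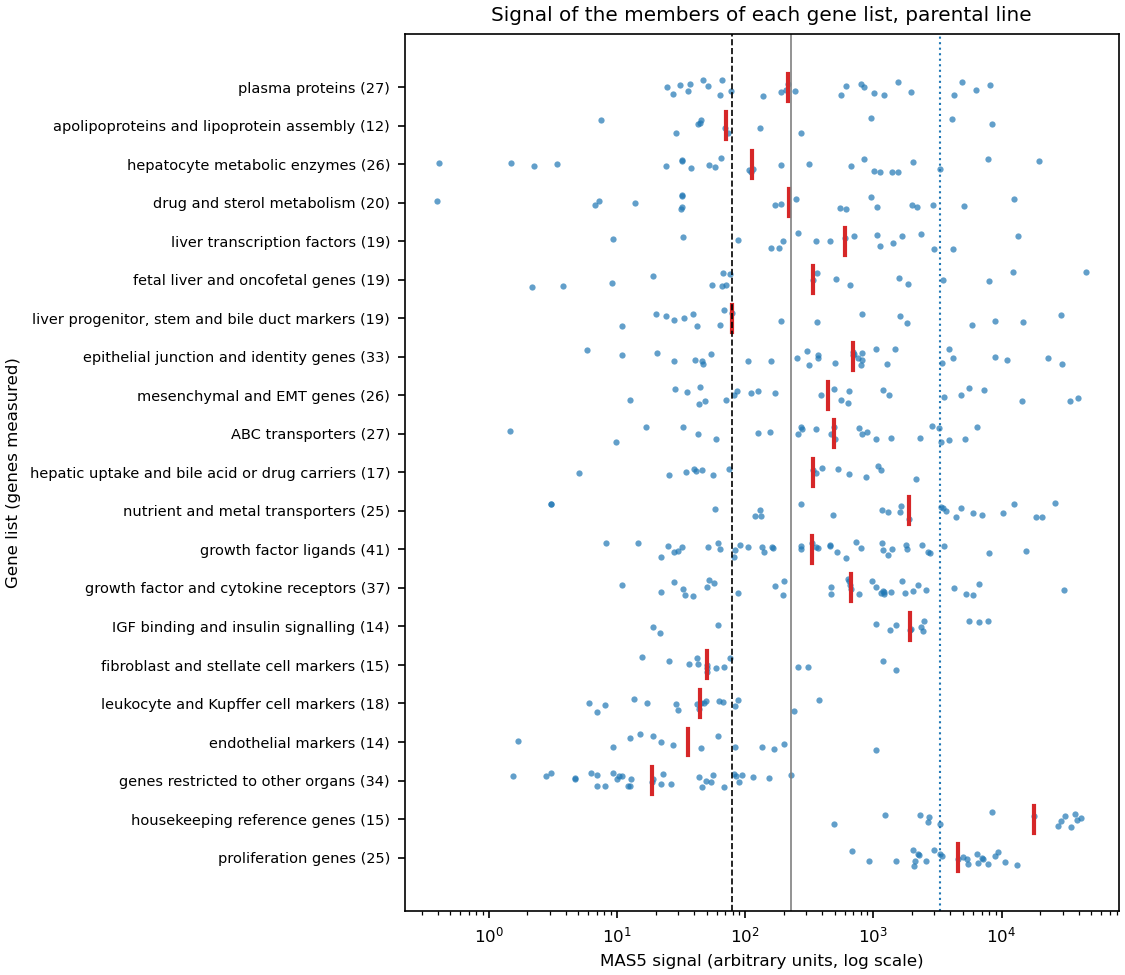
Parental MAS5 signal of each measured member (horizontal axis, log scale, arbitrary units) of the gene lists, 1 row for each list, 1 point for each gene, red bars for the list medians, and lines for the floor (dashed), the highest gene restricted to other organs (solid) and the lower limit of the brightest 10% (dotted). The medians of the housekeeping (17874) and proliferation genes (4572) lie right of the dotted line, and the genes restricted to other organs end at 226.

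Growth factor ligands were above the floor in 31 of 41 cases (75.6%, beside 61.1% of all genes), 8 of them faint, and 3 (7.32%) were in the brightest 10%. The Wnt inhibitor DKK1 was at 15539 (rank 249), MDK at 7998 and the KIT ligand KITLG at 3577, the last with a second probe set at 92.5. TGFB2 was at 2780, the stress cytokine GDF15 at 2667, and the angiogenic factor VEGFA at 2407 (rank 2694) with all 4 probe sets above the floor. GDF15 was at 85.3 and 46.9 in its other probe sets. BMP2 was at 1824 and PDGFA at 733, and the EGFR ligand TGFA was faint at 161. The hormone genes IGF1 (32.3), FGF19 (8.25) and FGF21 (30.1) and the MET ligand HGF (51.7) were under the floor.

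Receptors were led by MET, the receptor of HGF, at 30508 (rank 49). Its other 3 probe sets were at 10840, 9234 and 2817, so all 4 were above the floor, while HGF was under it. IGF2R was at 6660, TGFBR2 at 5942 and 58.3, and the shared interleukin-6 receptor chain IL6ST at 5246. IL6ST was at 574 in its second probe set and 28.6 in its lowest. Of the ERBB family, ERBB3 was at 4253 (rank 1511), EGFR at 1207 (rank 4718, the brightest of 9 probe sets), ERBB2 at 470 (its other 2 probe sets under the floor) and ERBB4 under the floor at 33.0. FGFR4, the liver FGF receptor, was at 1682 (rank 3701) and 231 in its 2 brightest probe sets, but its partner KLB was at 34.1. INSR was at 1366 and IGF1R at 1221. KIT (11.04) was under the floor although its ligand was in the brightest 10%, and so were PDGFRA (27.8) and PDGFRB (50.5). In all, 28 of 37 receptors (75.7%) were above the floor, beside 61.1% of all genes.

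Of 14 genes of insulin-like growth factor binding and insulin signalling, 11 (78.6%) were above the floor, beside 61.1% of all genes. IGFBP2 was at 7914 (rank 694), the adaptor GRB10 at 5545 and IGFBP3 at 2466 and 739. IGFBP1, the insulin-regulated liver binding protein, was at 2427 in 1 probe set and 1.55 in the other. The adaptor IRS1 was at 1936, with all 3 probe sets above the floor. IGFBP7 (21.9), IGFALS (18.9), which binds the circulating complex, and IRS4 (61.0) were under it.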

How the data were processed

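Total RNA of the parental line was measured on 1 array with 54675 probe sets. The authors deposited 1 intensity on a linear scale for each probe set. Per the submitters' processing notes the tool was MAS5, with its version not given in the sources used here. That method takes mismatch probes from perfect-match probes, so low values carry much noise. The mean without the lowest and highest 2% of values was 500.1, as a global scaling leaves it. The other 2 value columns, of the sublines, were not used.

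Of the probe sets, 62 were controls, 41091 had 1 symbol in the platform annotation, 1801 had several and 11721 are not named here; the last 2 kinds were left out of the ranking. Symbols were updated through a RefSeq table of GRCh38.p14, where 41037 (99.9%) matched. A gene was its brightest probe set (10523 of 19775 genes had several), and the values were ranked on the linear scale with Python 3.11.15, pandas 2.3.3 and numpy 2.4.6. Ranking and counting were tested on simulated data. No test was made, and depth has no meaning for 1 array beyond the spread of its signals. The 21 gene lists, the members and the rules were chosen with earlier results of these data known. List genes not found under 1 symbol were not analysed here.

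Named genes were the 25 brightest, up to 8 brightest members of each list above the floor and the first 5 in list order at or under it, and 27 preset genes on the array; some that met the rule are not named. ABCB4, CLDN1, CLDN4, CREB3L3, CYP3A4, FGA, FOXA1, FOXA3, HGF, IGF1, INSR, NR5A2, PROX1, SERPINA1, SLC31A1, SLC51A, SNAI1, SNAI2, TTR and ZEB2 are outside the rule and were picked with their values in view. The level of 226, the CpG limit of 0.4 and the restriction of the promoter description to protein-coding genes of chromosomes with entries (13454 of 15930, 84.5%) were also chosen then. No promoter result is given for the lists, since in most of them fewer than 80% of members had an entry. Alternatives changed the probe set, the floor and the genes ranked.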

Additional observations from a re-analysis of the deposited data

Results flagged for a closer look

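Signal outside the ranking came from probe sets with several symbols or none. Among the 1801 probe sets annotated with several symbols, 252 (14.0%) were at least as bright as the dimmest gene of the brightest 10%, and the highest was at 46298. Among the 11721 probe sets without a name here, 156 (1.33%) were, and the highest, at 47009, was the brightest value of the whole array. There were no control samples to set a background level for these, so the lower limit of the brightest 10% of genes, 3314, was used as the bar.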

How the results depend on the processing

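With no replicate, the alternatives changed the floor, the probe set that represents a gene, or the genes ranked. A floor at the 25th percentile (20.3) raised the members above it to 27 of 27 plasma protein and 11 of 12 apolipoprotein genes. It also passed 17 of 19 progenitor, 16 of 17 hepatic uptake and 14 of 15 fibroblast genes. Of the leukocyte list 13 of 18 passed, of the endothelial list 9 of 14, and of the other-organ list 16 of 34. A lower floor passes more of all genes too. A floor at the 75th percentile (434.9) left 7954 genes, with 3 apolipoprotein, 11 transcription factor, 18 ligand, 2 fibroblast, 0 leukocyte, 1 endothelial and 0 other-organ genes. A floor at 226, added after seeing the data, left 2 leukocyte genes and 1 endothelial gene. The lowest probe set of each gene left 7843 genes, with 10 plasma protein, 8 transcription factor, 5 progenitor, 15 epithelial, 8 mesenchymal, 4 uptake, 12 nutrient transporter, 18 ligand, 9 receptor, 1 fibroblast, 2 leukocyte, 2 endothelial, 2 other-organ and 8 housekeeping genes. The median probe set left 2 of 18 leukocyte and 2 of 34 other-organ genes. Without probe sets ending in _s_at or _x_at, where fewer members were measured, 2 apolipoprotein, 4 progenitor, 2 fibroblast, 3 endothelial, 3 other-organ and 8 housekeeping genes passed. The other counts above the floor were within 1.5 times, as were all 21 with protein-coding genes only. So was the count of all genes at the 25th percentile, with the median probe set and without _s_at and _x_at. Counts in the brightest 10% moved by more in 12 lists with the lowest probe set, 7 with the median, 8 without _s_at and _x_at, and 1 (ABC transporters, from 4 to 2) with protein-coding genes only. Of 179 named genes above the floor, 163 stayed above it by the median probe set, 118 by the lowest and 156 at the higher percentile. Ranks moved as well: the rank percentile of 257 of 266 named genes left its binomial interval over genes with the lowest probe set. So did 234 with the median, 210 of 213 without _s_at and _x_at, and 232 of 266 with protein-coding genes only. That interval counts genes and not arrays, so it gives no error of a gene's position. No paired analysis was possible because each group had 1 array.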

Other observations

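Gene families outside the lists also took distinct positions on the parental array. Among 284 groups of at least 8 genes whose symbols share a stem, those of mitochondrial complex I (NDUFB, 10 of 11 in the brightest 10%, and NDUFA, 10 of 12), the chaperonin CCT (7 of 9) and the proteasome (PSMD, 9 of 12, and PSMB, 7 of 10) stood near the ribosomal genes. Of 12 genes with the stem ANXA, 7 were in that band. All 12 but ANXA2R (224), a receptor gene, are annexins, which bind membranes in the presence of calcium. Killer cell immunoglobulin-like receptors (KIR, 13 genes), sodium channels (SCN, 12 genes) and secretoglobins (SCGB, 8 genes) had none above the floor. Keratin-associated proteins (KRTAP) had 1 of 33. Of all protein-coding genes, 68.1% were above the floor and 11.8% were in the brightest 10%. These groups were singled out after their values were seen.

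Some bright single genes were also chosen after their values were seen, and no list stands behind them. KRT20, an intestinal keratin, was at 24866 (rank 102), S100P at 23839, the gut galectin LGALS4 at 14246 and the gastric annexin ANXA10 at 9497. Other genes of the gut, such as FABP2 (16.4) and ANXA13 (45.0), were under the floor. AKR1C3, AKR1C2 and AKR1C1 held ranks 75, 81 and 83, and the quinone reductase NQO1 was at 28532 (rank 69). The thioredoxin reductase TXNRD1 was at 30580 in 1 probe set and 8.70 in the other, and the glutathione peroxidase GPX2 was at 22171. Some relatives of these enzymes lay far lower, AKR1C4 at rank 8389, TXNRD2 at rank 8176 and GPX7 at rank 10904. Others were bright too, with GPX4 at rank 275, GPX1 at rank 755 and GPX8 at rank 1971. AKR1C1, AKR1C2 and AKR1C3 are near-identical copies, so their probe sets may read each other's transcripts.

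Of 2657 genes for long noncoding RNAs, 611 (23.0%) were above the floor, against 68.1% of 16516 protein-coding genes. The brightest were ZFAS1 at 11879 (rank 371), NORAD at 8931, MALAT1 at 8586 and LINC00942 at 7472. NORAD was at 203 in its other probe set, whereas ZFAS1 was at 11540 in its second.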
